A study of Mus musculus with 4 samples.

Results

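The genes described here encode the machine that destroys beta-catenin: Apc, Axin1, Amer1, Csnk1a1, Gsk3a, Gsk3b, Ctnnb1 and Btrc. They were taken by symbol, 8 of the 31053 genes in the deposited matrices, and all 8 symbols were found. Without a Wnt signal, the scaffold proteins Axin1 and Apc hold beta-catenin (Ctnnb1) beside the kinases casein kinase 1 alpha (Csnk1a1) and glycogen synthase kinase 3 (Gsk3a and Gsk3b). The kinases mark beta-catenin at its amino end, beta-TrCP (Btrc) recognises the mark, and the protein is ubiquitinated and degraded. Amer1 ties Apc to the plasma membrane. In the intestine, a Wnt signal at the crypt base halts this turnover, beta-catenin reaches the nucleus with TCF partners, and stem and Paneth cells depend on it.

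Mice of both genotypes carried a tamoxifen-activated Cre expressed from Atoh1, a transcription factor of the secretory lineage, and the R26RTom reporter. Recombination, and so the red TOM signal by which living crypt cells of the duodenum were sorted, was limited to cells with that Cre and their descendants. WT libraries (n = 2) came from Atoh1CreER-T2;R26RTom mice. APC-KO libraries (n = 2) came from mice that carried Apcfl/fl, a loxP-flanked Apc gene, in addition; the sample labels write their Cre as Atoh1Cre and the design text as Atoh1CreER-T2. Both groups received tamoxifen of 1 mg/mL in 2 doses 24 h apart, and crypts were taken 12 h after the last dose. No source used here gave age, sex or the number of animals per library, so p-values measure the spread between these libraries, which may be technical.

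The authors' tables kept 15234 cells and gave each 1 of 12 type names, printed here as deposited. The libraries held 54230249 to 61032126 UMIs, and kept cells numbered 4814 and 3821 in WT and 356 and 6243 in APC-KO. APC-KO replicate 1 thus stood apart: its kept cells held 5.15% of its UMIs, against 37.6% to 50.3% in the others, and only EC (45 cells), GOBLET (28) and GOBLET-PRE (184) reached the 20 cells asked of a sum. Pairs of libraries shared 1 to 8 kept barcodes. The cell type EC was marked by Tph1, an enzyme of serotonin synthesis, and Chga, NON-EC by peptide hormones such as Cck and Gip, and ENTERO-PRO by Fabp1 and Apoa1 of lipid handling. The summed markers of EC, NON-EC, EEC-PRE, TUFT, ISC, ENTERO-PRO, GOBLET and PANETH were highest in the type of that name, and GOBLET-PRE and PANETH-PRE held the goblet and Paneth markers at lower levels. The 3 secretory progenitor markers were highest in GP, not in SEC-PRO. Summed blood markers reached at most 33.6 CPM and stromal markers 3.48 CPM in any sum, while of the 2 endothelial markers Cdh5 was at 0 and the sum reached 31.9 CPM, highest in EC. The part of such cells in the results was not tested.

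The 15 codons of beta-catenin's destruction signal are shown because the 8 genes meet there: the kinases phosphorylate some of its serines and threonines, and Btrc binds the result. The stretch lies in exon 3 of Ctnnb1, chr9:120950602-120950646 on the plus strand of GRCm38, inside a coding sequence of 2343 bases in the GENCODE vM21 transcript. Capitals mark the 6 codons for serine or threonine, whether or not the kinases act on them, read 5′ to 3′.
Ctnnb1 destruction signal: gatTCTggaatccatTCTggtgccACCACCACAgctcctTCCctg

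Of the members, Gsk3a, Gsk3b and Ctnnb1 had an entry in the RefSeq promoter table (GRCm38.p6). The 250 bases before the starts of Gsk3a and Gsk3b are set side by side because these paralogous kinases differed in how their levels varied between cell types. Capitals mark CpG dinucleotides. The Gsk3a window is chr7:25237852-25238101 on the minus strand, and the Gsk3b window is chr16:38088751-38089000 on the plus strand.
Gsk3a: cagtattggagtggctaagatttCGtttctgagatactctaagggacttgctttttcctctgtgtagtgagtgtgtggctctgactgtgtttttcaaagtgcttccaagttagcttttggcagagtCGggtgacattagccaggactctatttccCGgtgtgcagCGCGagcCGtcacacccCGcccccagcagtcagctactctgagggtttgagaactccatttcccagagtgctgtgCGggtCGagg
Gsk3b: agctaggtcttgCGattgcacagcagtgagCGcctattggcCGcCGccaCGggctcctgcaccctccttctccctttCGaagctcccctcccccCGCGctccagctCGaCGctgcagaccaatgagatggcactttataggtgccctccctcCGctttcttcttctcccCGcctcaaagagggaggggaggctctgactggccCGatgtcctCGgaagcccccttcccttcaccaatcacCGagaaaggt
The Gsk3a window held 9 CpG and the Gsk3b window 15, against a median of 6 over the 32851 windows of the table. At least 9 CpG were in 40.3% of the windows and at least 15 in 27.3%. The TCF motif CTTTGAT, searched on both strands, was in neither window and in 3.21% of all windows.

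Levels are given as scaled CPM, UMI counts of a gene brought to a common library total with TMM scaling, for sums of all cells of a type in a library. The cell types were compared in 1 fit over the 39 sums with at least 20 cells, with the library as a block, and each type was set against the mean of the other 11 as a log2 difference. A result is called where the edgeR adjusted p over 11091 genes was under 0.05. The type names rest on expression in the same cells, so these p-values are not independent of the naming. Of the 11091 genes, 10454 (94.3%) differed between types, and 7 of the 8 members did. The exception was Gsk3a (adjusted p = 0.68, edgeR; 0.065 to 1 over the alternatives). Of 96 pairs of a member and a type, 37 were called, 19 of them higher and 18 lower. The share of all genes called in a type ran from 21% in PANETH-PRE to 62.4% in ISC. Without WT replicate 1, 19 pairs were called.

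**Figure D1:**
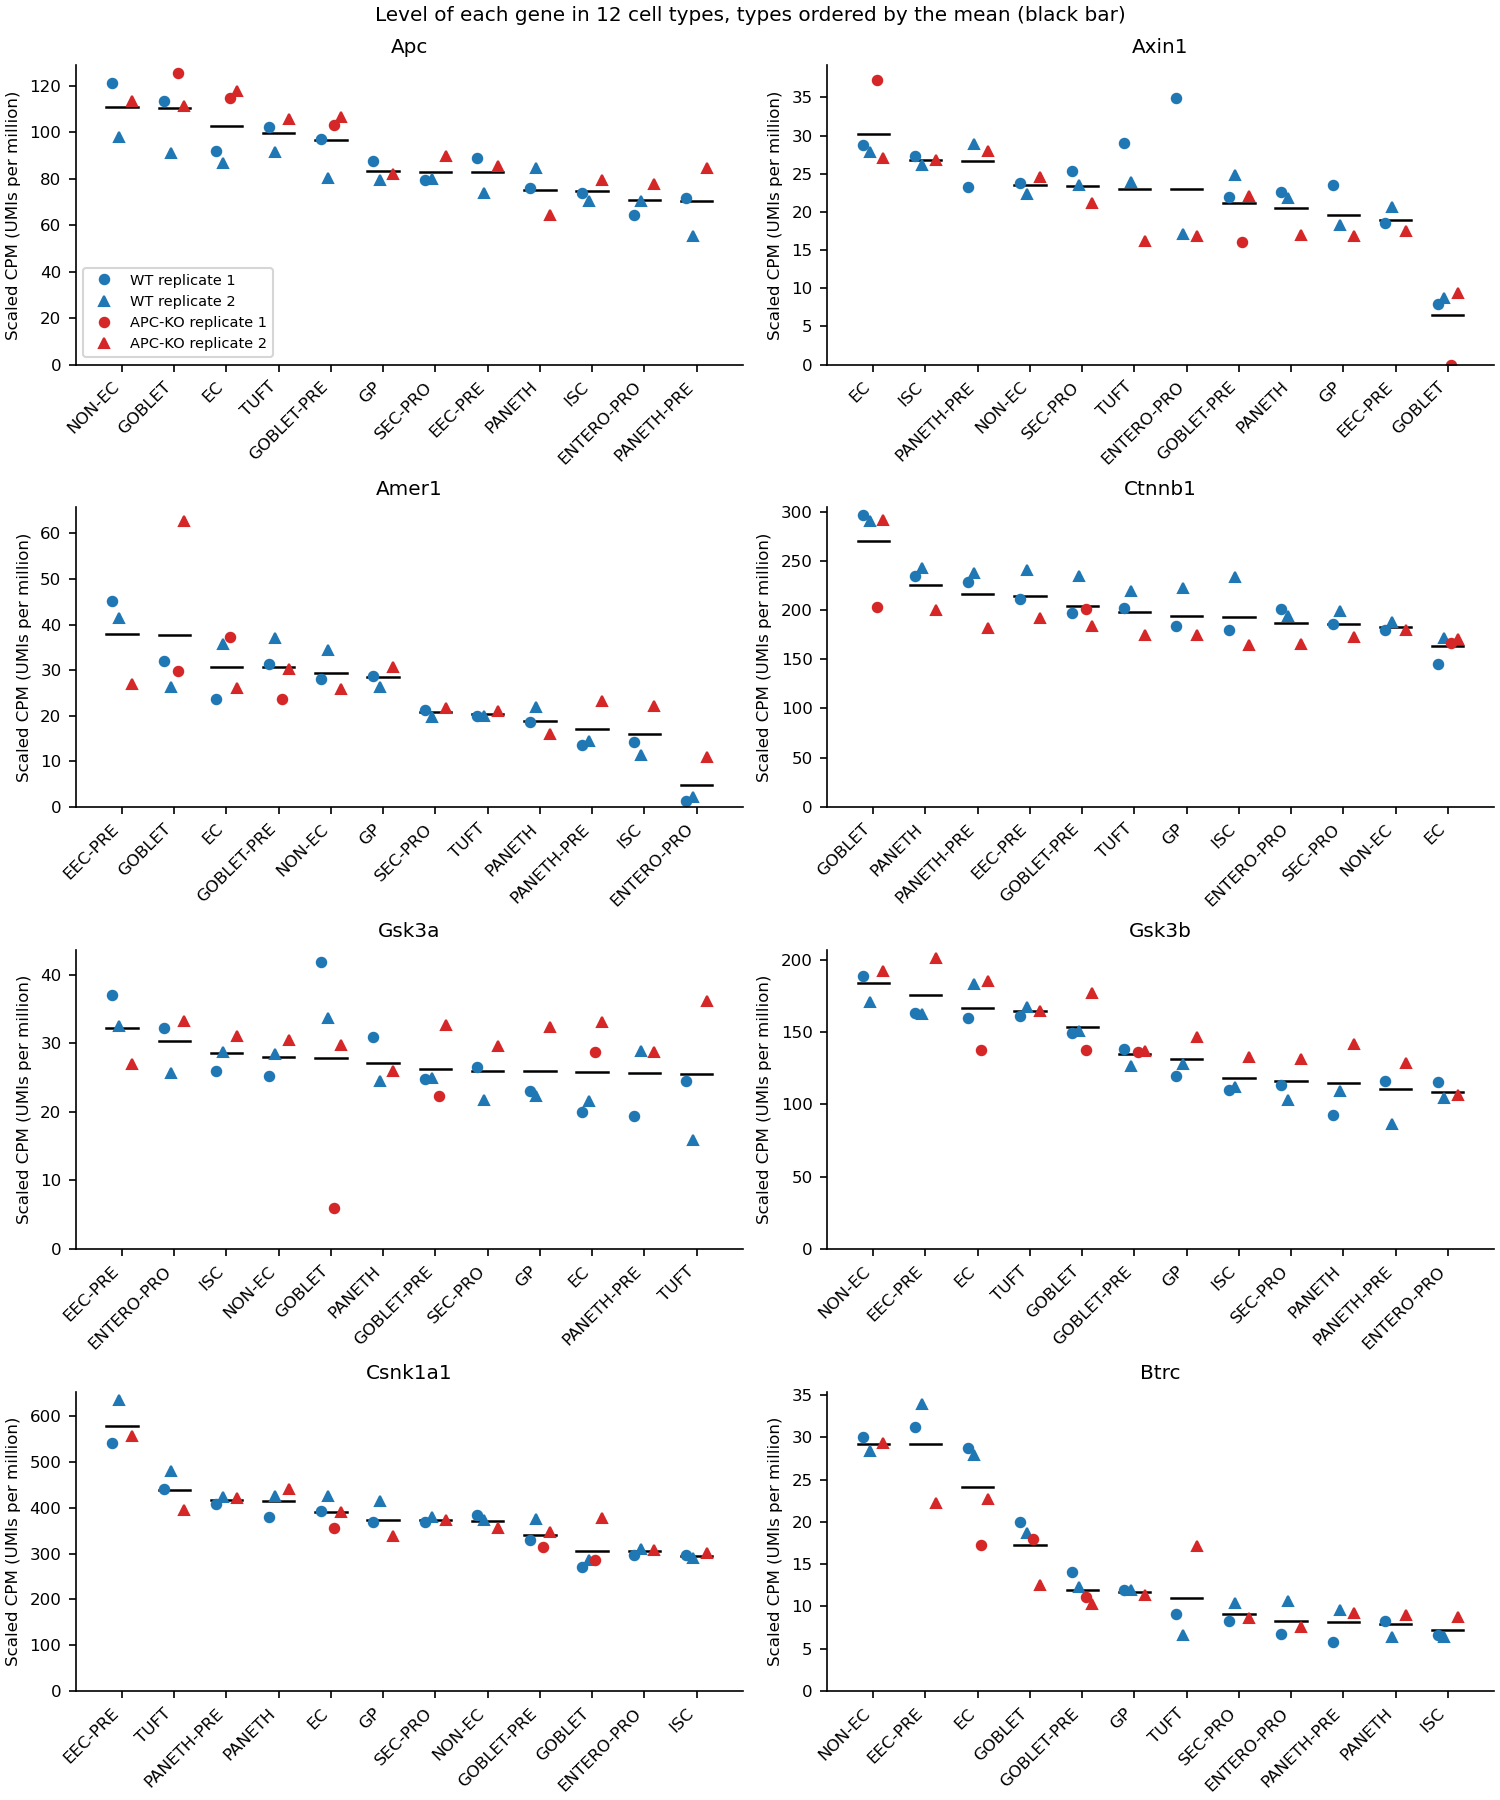
Level of the 8 genes (vertical axis, scaled CPM on a linear scale from 0) in each of 12 cell types, ordered by the mean (black bar). Points are libraries with at least 20 cells of the type, blue for WT and red for APC-KO, circles for replicate 1 and triangles for replicate 2; Axin1 is lowest in GOBLET, Amer1 in ENTERO-PRO, and Btrc is highest in NON-EC, EEC-PRE and EC.

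Apc, the large scaffold that the APC-KO mice carry in loxP-flanked form (chr18:34220924-34322552, plus strand), varied little between types. Its mean ran from 111 ± 11.8 scaled CPM (SD, n = 3) in NON-EC to 70.7 ± 14.8 (SD, n = 3) in PANETH-PRE, a 1.57-fold span, and every neighbouring pair in the order overlapped. In NON-EC the WT libraries read 122 and 98.3 scaled CPM and APC-KO replicate 2 read 114. In ENTERO-PRO the same libraries read 64.5, 70.4 and 77.7 scaled CPM, all below the NON-EC libraries. The NON-EC difference from the mean of the others was 0.40 on the log2 scale (SE 0.09, adjusted p = 0.000172, edgeR), and 0.24 (adjusted p = 0.193, edgeR) without WT replicate 1. GOBLET (0.30, SE 0.10) and EC (0.20, SE 0.08) were also called higher, and ENTERO-PRO (-0.32, SE 0.10) and ISC (-0.24, SE 0.07) lower. Each of these calls was lost without WT replicate 1, and so was the call that Apc differed between types at all (adjusted p = 0.0914, edgeR). The EC call held under 3 of 13 alternatives, with a difference of 0.05 without APC-KO replicate 2.

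Axin1, the scaffold that assembles the complex (chr17:26138688-26195811, plus strand), was low in GOBLET. In GOBLET the WT libraries read 7.97 and 8.73 scaled CPM, from 4 and 7 UMIs, and the APC-KO libraries 0 and 9.40. All 4 lay below every library with at least 20 cells in each of the other 11 types. In GOBLET-PRE, the type that shares goblet markers, they read 22.0, 24.8, 16.04 and 22.1 scaled CPM. The GOBLET difference was -1.49 (SE 0.28, adjusted p = 1.95e-05, edgeR), and it ran from -1.67 to -1.18 over the alternatives. The level in barcodes with 1 to 50 UMIs, which carry free RNA, was 17.6 to 20.8 CPM without TMM scaling, above its level in GOBLET. The highest mean was 30.2 ± 4.78 scaled CPM (SD, n = 4) in EC. EC (0.49, SE 0.15), ISC (0.39, SE 0.11) and PANETH-PRE (0.46, SE 0.17) were called higher, but with the WT libraries alone none of these was (adjusted p = 0.145, 0.229 and 0.628, edgeR). The ISC difference was 0.23 and the PANETH-PRE difference 0.30 without APC-KO replicate 2, neither called.

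Amer1, the membrane anchor of Apc (chrX:95420318-95444872, minus strand), had the widest span, 7.94-fold between the mean of EEC-PRE (37.9 scaled CPM) and that of ENTERO-PRO (4.77). In ENTERO-PRO the WT libraries read 1.34 and 2.13 scaled CPM, each from 1 UMI, and APC-KO replicate 2 read 10.8, from 27 UMIs. ENTERO-PRO was thus below all other types in WT, while APC-KO replicate 2 stood above both WT libraries. The difference from the other types was -1.78 (SE 0.29, adjusted p = 1.32e-06, edgeR), where leaving out APC-KO replicate 2 gave -3.79. Free RNA held Amer1 at 12.3 to 22.6 CPM without TMM scaling, above the WT level in ENTERO-PRO. ISC was lower too, with 14.2 and 11.5 scaled CPM in WT and 22.0 in APC-KO replicate 2. Its difference of -0.46 (SE 0.15) was not called without WT replicate 1 (adjusted p = 0.0754, edgeR). GOBLET (0.82, SE 0.23), EEC-PRE (0.81, SE 0.23) and GOBLET-PRE (0.55, SE 0.12) were called higher. The EEC-PRE difference was 1.22 without APC-KO replicate 2 and 0.53, not called, without WT replicate 1; the GOBLET-PRE difference was 0.85 without APC-KO replicate 2.

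Csnk1a1, the kinase that primes beta-catenin (chr18:61555274-61590061, plus strand), was highest in EEC-PRE. In EEC-PRE the WT libraries read 541 and 636 scaled CPM and APC-KO replicate 2 read 557. These lay above all libraries of TUFT, the next type, at 442, 481 and 395 scaled CPM. The EEC-PRE difference was 0.66 (SE 0.08, adjusted p = 7.33e-09, edgeR). ISC and ENTERO-PRO were at the low end: ISC libraries read 297, 290 and 300 scaled CPM, and those of ENTERO-PRO 297, 309 and 308. The ISC difference was -0.39 (SE 0.09, adjusted p = 0.0001, edgeR) and that of ENTERO-PRO -0.35 (SE 0.09). GOBLET was called lower (-0.31, SE 0.09) and TUFT higher (0.22, SE 0.09), and leaving out either WT library ended both calls.

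Gsk3a and Gsk3b encode the glycogen synthase kinases whose upstream windows are printed above. Gsk3a (chr7:25228258-25237851, minus strand) was called in no type, and its means spanned 1.26-fold, from 32.2 ± 5.05 scaled CPM (SD, n = 3) in EEC-PRE to 25.5 ± 10.2 (SD, n = 3) in TUFT. Gsk3a had 620 UMIs over all kept cells of WT replicate 1, where Gsk3b had 3188. The SE of the NON-EC difference was 0.16 for Gsk3a and 0.08 for Gsk3b. A difference of the same size was thus less readily called for Gsk3a. Gsk3b (chr16:38089001-38246084, plus strand) spanned 1.69-fold and was called in 9 types, more than any other member. Its NON-EC libraries read 189, 171 and 192 scaled CPM, and its ENTERO-PRO libraries 115, 105 and 107, without overlap. NON-EC (0.46, SE 0.08), EEC-PRE (0.37, SE 0.09), EC (0.35, SE 0.07) and TUFT (0.26, SE 0.08) were higher. ENTERO-PRO (-0.43, SE 0.09), PANETH-PRE (-0.31, SE 0.09), SEC-PRO (-0.28, SE 0.07), PANETH (-0.26, SE 0.10) and ISC (-0.25, SE 0.07) were lower. The EC and EEC-PRE calls held under every alternative run; without WT replicate 1 the calls for NON-EC, TUFT, PANETH-PRE, SEC-PRO, PANETH and ISC were lost, with a PANETH difference of -0.14. ENTERO-PRO was not called without APC-KO replicate 2 (-0.24, adjusted p = 0.174, edgeR), and PANETH, PANETH-PRE and TUFT were not called without WT replicate 2. PANETH-PRE was not called without APC-KO replicate 2 either.

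Gsk3a made up 13.2% of the summed Gsk3a and Gsk3b UMIs in NON-EC and 21.8% in ENTERO-PRO, as means of 3 libraries. The ENTERO-PRO libraries ran from 19.7% to 23.8% and the NON-EC libraries from 11.7% to 14.2%, without overlap. Such a share depends on how well the 3′ end of each transcript is captured, so it is read between types and not as a ratio of proteins.

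Ctnnb1, the substrate (chr9:120929216-120960507, plus strand), was highest in GOBLET and lowest in EC, 1.65-fold apart. The GOBLET libraries read 297 and 291 scaled CPM in WT and 203 and 291 in APC-KO. In EC they read 146 and 171 in WT and 167 and 171 in APC-KO, below every GOBLET library. The GOBLET difference was 0.53 (SE 0.09, adjusted p = 1.16e-06, edgeR), where the median gene had a difference of -0.21. The EC difference was -0.32 (SE 0.09, adjusted p = 0.00164, edgeR). It was -0.48 when APC-KO replicate 2 was left out. No other type was called. In barcodes with 1 to 50 UMIs, Ctnnb1 stood at 122 to 220 CPM without TMM scaling. On that scale all kept cells of a library read 163 to 215 CPM, so free RNA is not to be set against the scaled levels above.

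Btrc, the receptor subunit of the ubiquitin ligase (chr19:45363734-45530013, plus strand), was high in NON-EC, EEC-PRE and EC and low in ISC. NON-EC libraries read 30.0, 28.4 and 29.3 scaled CPM, and EEC-PRE libraries 31.3, 34.0 and 22.2. EC libraries read 28.7 and 27.9 in WT and 17.2 and 22.7 in APC-KO. By contrast ISC libraries read 6.57, 6.37 and 8.75 scaled CPM, each below every library of those 3 types. The differences were 1.26 for NON-EC (SE 0.18, adjusted p = 4.42e-08, edgeR), 1.27 for EEC-PRE (SE 0.20) and 1.08 for EC (SE 0.16). ISC differed by -0.84 (SE 0.17, adjusted p = 3.27e-05, edgeR), and these 4 calls held under every alternative run. ENTERO-PRO (-0.78, SE 0.25), PANETH (-0.77, SE 0.29) and SEC-PRO (-0.58, SE 0.16) were called lower, and none of these was called without WT replicate 1 or without APC-KO replicate 2. PANETH was also lost without WT replicate 2 (-0.61). Most sums rest on few Btrc UMIs, 3 to 81 among WT sums.

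**Figure D2:**
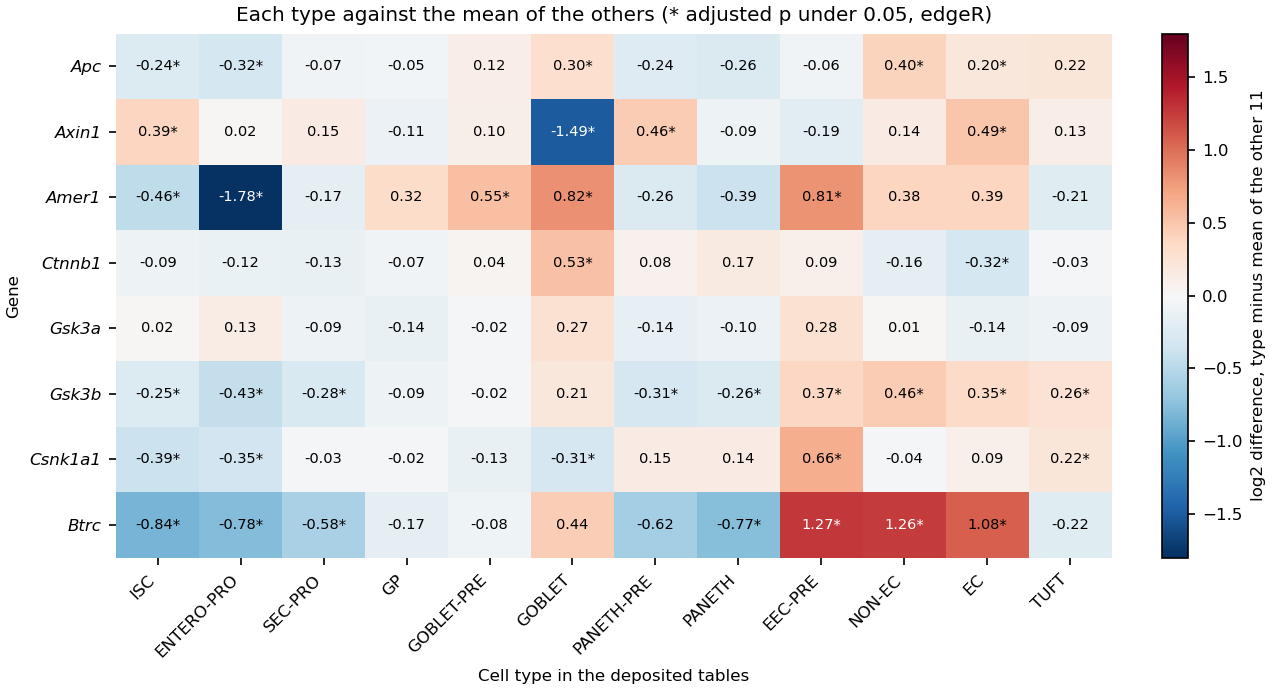
Log2 difference of each type (columns) from the mean of the other 11, for the 8 genes (rows); red is higher, blue lower, and an asterisk marks an edgeR adjusted p under 0.05. Gsk3a has no asterisk, the lowest value is Amer1 in ENTERO-PRO (-1.78) and the highest Btrc in EEC-PRE (1.27).

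Read by type, the called members are set here beside the share of all 11091 genes called in either direction. ISC had 6 of 8 members called, 5 of them lower, with Axin1 the one higher, where 62.4% of all genes were called (27.3% lower). ENTERO-PRO had 5, all lower (Apc, Amer1, Gsk3b, Csnk1a1 and Btrc), against 45.7% (20.5% lower). EC had 5, with Ctnnb1 the only one lower, against 56.3% (31.4% higher). GOBLET had 5 (Apc, Amer1 and Ctnnb1 higher, Axin1 and Csnk1a1 lower) against 53.9% (25% higher). EEC-PRE had 4, all higher, against 46.2% (25.5% higher), and NON-EC had 3, all higher, against 51% (28.6% higher). PANETH, PANETH-PRE, SEC-PRO and TUFT had 2 each, against 27.5%, 21%, 41.1% and 37.7%. GOBLET-PRE had 1 (54.4%) and GP none (36%). Over the alternatives the count ran from 3 to 6 in ISC, from 2 to 5 in ENTERO-PRO, from 1 to 5 in NON-EC, from 3 to 6 in EC and GOBLET, from 3 to 4 in EEC-PRE, from 1 to 2 in GOBLET-PRE and from 0 to 1 in GP. In PANETH, PANETH-PRE, SEC-PRO and TUFT it ran from 0 to 2.

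The members did not vary as a unit. Over the 39 sums, centred within libraries as log2(CPM + 1), Btrc and Gsk3b had the highest correlation among members (Pearson r = 0.76), followed by Apc and Gsk3b (r = 0.69). Axin1 and Ctnnb1 had the lowest (r = -0.47). The sums share libraries, depth and free RNA, so these are descriptions. Among 5970 genes compared over the same sums, the pattern of Apc was most like that of Zcchc11 (r = 0.82), Gclc and Mef2a. For Axin1 the likest gene was Mettl16 (r = 0.92), then Ap1ar and Dtd1. Amer1 was likest to Foxp4 (r = 0.83), Limk2 and Tapt1, and Ctnnb1 to Tmem59 (r = 0.82), Panx1 and H2-K1. Csnk1a1 was likest to Enc1 (r = 0.88), Acadsb and Smarca4. Gsk3b was likest to Arhgef2 (r = 0.87), Fgd6 and Rbm5, and Gsk3a, at lower values, to Tbcc (r = 0.73), Dohh and Txndc9.

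The genotypes were compared in all kept cells and in the 3 types with enough cells in every library. No member passed the threshold in any of these, nor in the test of whether the genotype difference varied between the 3 types. In all kept cells edgeR called 0 of 13345 genes (0%), DESeq2 called 23, and 495 had an unadjusted edgeR p under 0.05. In EC it called 0 of 8690 (0%); 729 had an unadjusted p under 0.05, and DESeq2 called 6; in GOBLET 5 of 5974 (0.0837%); in GOBLET-PRE 1 of 10272 (0.00974%); and for the genotype by type term 33 of 9854 (0.335%). DESeq2 called no member either. Without APC-KO replicate 1, 483 genes were called in all kept cells, still with no member among them. Scaling was made within each comparison, so levels here can be read between libraries of a type but not between types or against the levels above: Ctnnb1 in GOBLET of WT stood at 297 and 291 scaled CPM in the comparison of types and at 194 and 183 in that of genotypes. Groups of 2 libraries often do not overlap: the genotypes did not overlap for 31.1% of the genes tested in all kept cells, 42.6% in GOBLET, 38.5% in GOBLET-PRE and 37.9% in EC.

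Apc RNA read higher in APC-KO in each of the 4 comparisons, by differences that did not pass the test. Over all kept cells it stood at 83.8 and 76.0 scaled CPM in WT and at 96.0 and 86.3 in APC-KO, so both APC-KO libraries were above both WT libraries. The log2 difference was 0.19 (SE 0.16, adjusted p = 1, edgeR). GOBLET-PRE made up 184 of 356 kept cells in APC-KO replicate 1 and 1079 of 6243 in replicate 2. In WT it made up 1281 of 4814 and 1247 of 3821. Between types, Apc averaged 96.8 scaled CPM in GOBLET-PRE and 74.7 in ISC. The part of this mix was not tested, and the sum of all kept cells includes the cells of the other comparisons. In EC the libraries read 119 and 114 in WT and 155 and 158 in APC-KO. That difference, 0.43 (SE 0.18), had an unadjusted p of 0.0412 and an adjusted p of 0.573 (edgeR). Apc was also higher without overlap in GOBLET-PRE, at 83.4 and 68.0 against 89.8 and 92.6 scaled CPM (0.27, SE 0.16), and in GOBLET its groups overlapped (0.30, SE 0.28). Over the alternatives the difference ran from 0.11 to 0.34 in all kept cells, from 0.39 to 0.55 in EC, from 0.05 to 0.53 in GOBLET and from 0.13 to 0.42 in GOBLET-PRE. Over the 12 types, Apc was higher in APC-KO without overlap in 4, as 10.2% of genes were in as many or more, and lower in 1. The 4 were EC, GOBLET-PRE, ENTERO-PRO and ISC. In the last 2 the values of APC-KO replicate 1 came from 7 and 9 UMIs. The lower type was PANETH, with 76.1 and 84.9 scaled CPM in WT and 35.8 and 64.3 in APC-KO, the value of replicate 1 from 3 UMIs. These 3′ counts do not check the deletion: no source used here gave the flanked exons, and RNA from a shortened gene is counted as Apc where its 3′ end is kept. Apc2, the paralogue of Apc, made up at most 0.139% of the summed Apc and Apc2 UMIs over all kept cells of any library.

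For the substrate the direction depended on the cells read, while Btrc, the ligase receptor, read lower in APC-KO in each comparison without passing the test. Ctnnb1 stood at 180 and 210 scaled CPM in WT and at 178 and 171 in APC-KO over all kept cells, without overlap but with APC-KO replicate 1 next to WT replicate 1 (-0.16, SE 0.18). By type, both APC-KO libraries lay below both WT libraries in 9 of 12 types, which 1.62% of the 11091 genes matched or passed. With APC-KO replicate 2 alone, Ctnnb1 was below both WT libraries in 10 types, which 7.14% of genes matched or passed. The exceptions to the count of 9 were EC, GOBLET and GOBLET-PRE, the types in which APC-KO replicate 1 had 20 cells or more. On the scale of that count, EC overlapped, at 146 and 171 scaled CPM in WT and 167 and 171 in APC-KO. The comparison of genotypes was scaled on its own. There, Ctnnb1 in EC read 189 and 224 in WT and 225 and 230 in APC-KO, higher without overlap (0.15, SE 0.19). Types of a library are not independent, and APC-KO replicate 1 had 5 to 16 cells in those 9. The median UMIs per kept cell were 4841.5 and 5354 in WT, 8370 in APC-KO replicate 1 and 3973 in replicate 2. This differed by type: in PANETH the medians were 12643.5 and 10371.5 in WT and 3552 and 5954 in APC-KO. The part of depth in the 9 types was not tested. Btrc read 12.9 in each WT library and 13.4 and 10.6 in APC-KO, so replicate 1 was above WT and replicate 2 below it (-0.13, SE 0.21; 0.088 without APC-KO replicate 2). In EC it was lower without overlap, at 37.3 and 36.4 against 23.3 and 30.5 scaled CPM, with a difference of -0.37 (SE 0.30, adjusted p = 0.795, edgeR). Btrc was also lower without overlap in GOBLET-PRE, at 12.1 and 10.4 against 9.70 and 8.93 (-0.29, SE 0.24). In GOBLET its groups overlapped (-0.39, SE 0.54). Over the 12 types Btrc was lower without overlap in 5, as 21.1% of genes were in as many or more. It was higher in 2, as 39.0% of genes were in as many or more.

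The kinases and the other scaffolds showed no common direction. Gsk3b stood at 124 and 122 scaled CPM in WT and 132 and 135 in APC-KO (0.11, SE 0.15). Csnk1a1 read 337 and 367 against 314 and 344, which overlapped (-0.10, SE 0.18). Gsk3a read 24.2 and 23.2 against 22.1 and 29.8 over all kept cells (0.16, SE 0.20). In EC, Gsk3a read 26.0 and 28.1 in WT and 38.9 and 44.6 in APC-KO, the APC-KO values from 10 and 38 UMIs (0.67, SE 0.29, unadjusted p = 0.0414, adjusted p = 0.573, edgeR). In GOBLET it read lower, 27.4 and 21.2 against 4.49 and 19.6, the first APC-KO value from 1 UMI, with a difference of -0.53 (SE 0.44) that ran from -2.37 without APC-KO replicate 2 to -0.28 without replicate 1. Axin1 read 23.0 and 21.3 against 18.5 and 21.4 (-0.14, SE 0.17), and in GOBLET it had too few UMIs to be tested. Amer1 read 23.1 and 26.3 against 22.1 and 23.0 over all kept cells (-0.13, SE 0.17). In GOBLET, Amer1 read 20.9 and 16.5 in WT and 22.5 and 41.2 in APC-KO, with APC-KO replicate 1 just above WT and replicate 2 well above it (0.99, SE 0.37, unadjusted p = 0.0178, adjusted p = 0.354, edgeR). Without APC-KO replicate 2 the difference was 0.29. The genotype by type term gave unadjusted p = 0.0086 for Amer1 and 0.0422 for Gsk3a, with adjusted p = 0.499 and 0.735 (edgeR).

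**Figure D3:**
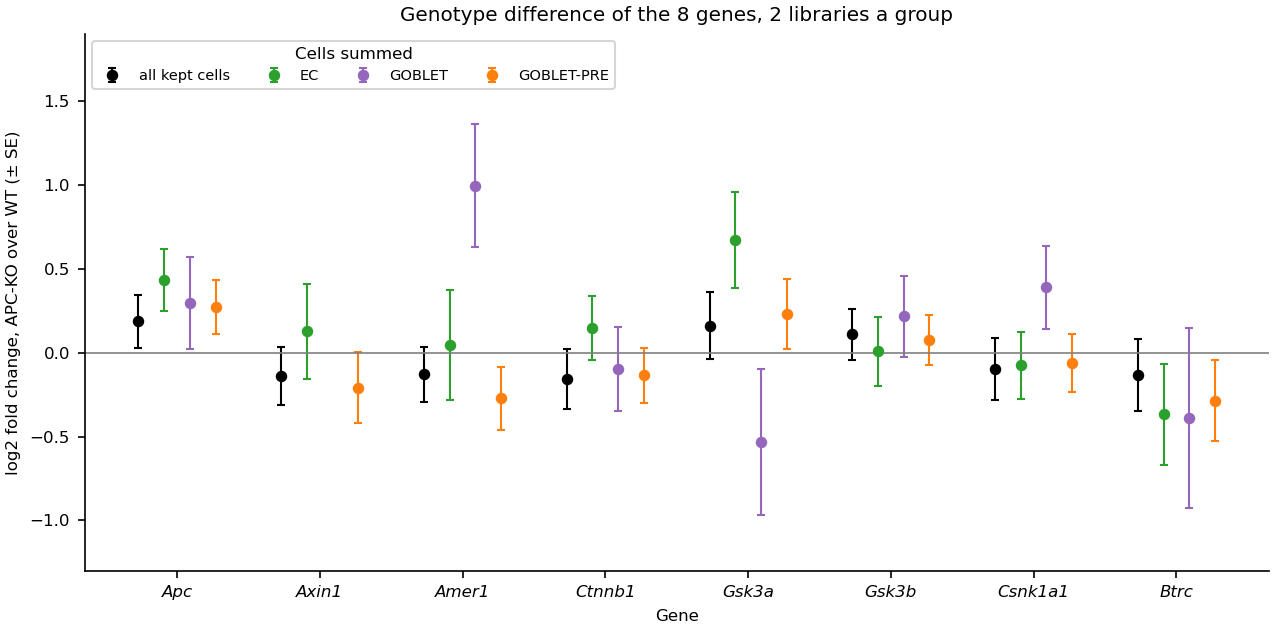
Log2 fold change of APC-KO over WT (vertical axis) with its standard error (bars) for the 8 genes, in all kept cells (black) and in EC (green), GOBLET (purple) and GOBLET-PRE (orange), 2 libraries a group. No point passed an edgeR adjusted p of 0.05; the values farthest from 0 are Amer1 in GOBLET (0.99, or 0.29 without APC-KO replicate 2) and Gsk3a in EC (0.67), and Axin1 was not tested in GOBLET.

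Paralogue shares showed where a related gene could stand beside a member. Axin2, a scaffold like Axin1 that Wnt signalling itself induces, made up 82.7% of the summed Axin1 and Axin2 UMIs in ISC, as a mean of 3 libraries, and 31.2% in GOBLET-PRE, as a mean of 4. Its own level was highest in ISC, at 119 and 109 scaled CPM in WT and 169 in APC-KO replicate 2. In GOBLET-PRE the share was 22.7% and 15.1% in WT (exact 95% Clopper-Pearson intervals 16.5% to 29.9% and 10.2% to 21.0%) and 43.9% and 43.0% in APC-KO (28.5% to 60.3% and 35.03% to 51.3%). In TUFT it was 47.5% and 37.9% in WT and 83.5% in APC-KO replicate 2. APC-KO replicate 2 was above both WT libraries in every type but NON-EC, by amounts that varied. NON-EC read 69.6% and 71.1% in WT and 69.1% in APC-KO replicate 2, and GP 49.2% and 47.97% against 51.7%. EC overlapped, at 54.9% and 43.5% in WT and 43.5% and 62.7% in APC-KO. Over all kept cells the share was 62.2% and 53.3% in WT and 50.5% and 76.2% in APC-KO, which overlapped (exact permutation p = 1, two-sided); the difference of 5.62 points ran from -7.23 to 18.5 with 1 library left out. APC-KO replicate 2 also held more ISC cells, 1245 against 575 and 228 in WT. Fbxw11, the paralogue of Btrc, made up 58.8% and 61.2% of the summed Btrc and Fbxw11 UMIs in WT and 62.2% and 70.1% in APC-KO. That is a difference of 6.14 percentage points with an exact permutation p of 0.333, the smallest that 2 libraries against 2 allow, and it ran from 2.23 to 10.1 points with 1 library left out. The Gsk3a share differed by 0.161 points (exact permutation p = 1), and by -1.72 to 2.04 points with 1 library left out. Intervals cover counting error only.

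**Figure D4:**
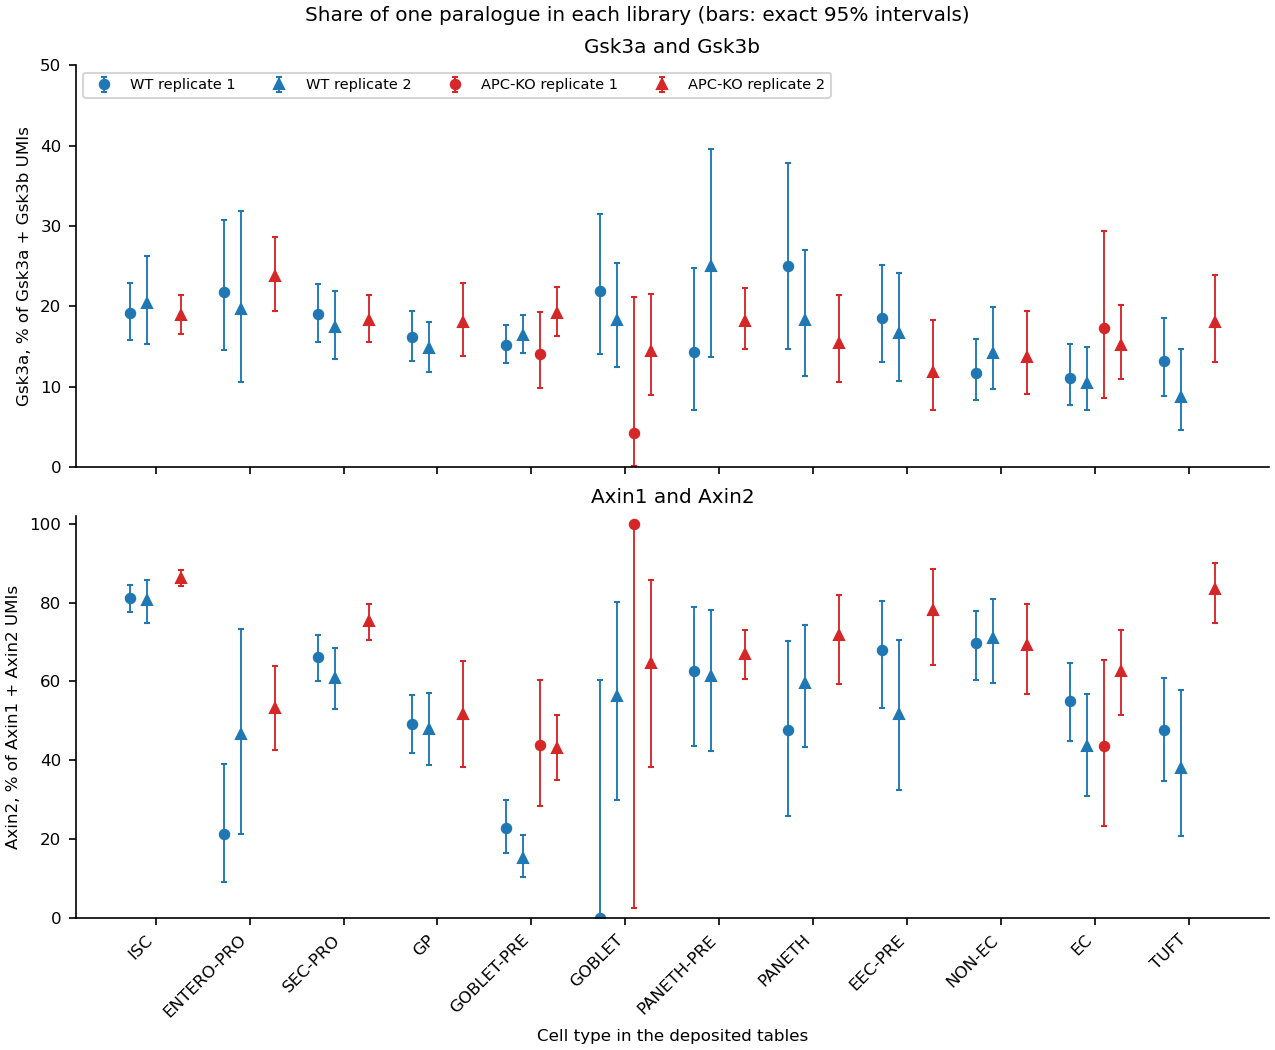
Share of Gsk3a among Gsk3a and Gsk3b UMIs (upper panel) and of Axin2 among Axin1 and Axin2 UMIs (lower panel), in percent, by cell type and library, with exact 95% intervals as bars; blue is WT and red APC-KO. The mean Gsk3a share lies between 13.2% and 21.8% over the types, while the Axin2 share is highest in ISC (82.7%) and the APC-KO libraries exceed WT in GOBLET-PRE (43.9% and 43.0% against 22.7% and 15.1%).

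Genes of the surrounding pathway were read from 7 lists, and in the genotype comparisons none of their genes passed the threshold. In the sums of all kept cells, 14 of the 20 Wnt target genes tested had a difference above 0, against 50.9% of all genes. Their median was 0.34 and that of all genes 0.01. Axin2 and Ccnd1 among them were highest in ISC, and ISC made up 1245 of 6243 kept cells in APC-KO replicate 2, 13 of 356 in replicate 1, and 575 of 4814 and 228 of 3821 in WT; the part of this mix was not tested. The medians were 0.49 in EC (9 tested), 0.64 in GOBLET (4) and 0.40 in GOBLET-PRE (12). The 22 tested partners in beta-catenin turnover had a median of -0.06 in all kept cells, the 26 receptors and relays -0.06, the 20 nuclear partners 0.06, the 8 junction partners 0.05, the 10 cytoskeletal partners of Apc 0.09 and the 4 ligands 0.13. Axin2 read 37.8 and 24.3 scaled CPM in WT and 18.8 and 68.4 in APC-KO (0.55, SE 0.60). Lgr5, the stem cell receptor, read 10.2 and 6.27 against 5.80 and 24.8 (1.02, SE 0.64). For both genes APC-KO replicate 1 was the lowest library and APC-KO replicate 2 the highest. Myc read 16.1 and 15.1 against 10.9 and 13.4 (-0.33, SE 0.20). In GOBLET-PRE, Axin2 read 5.54 and 3.72 in WT and 10.9 and 14.5 in APC-KO, both APC-KO libraries above both WT libraries (1.51, SE 0.31, unadjusted p = 0.00143, adjusted p = 0.483, edgeR).

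Between cell types most genes of these lists differed, as most genes did: 20 of 22 turnover partners, 24 of 25 receptors and relays, 17 of 18 nuclear partners, and all 8 junction partners, 9 cytoskeletal partners and 17 Wnt targets tested. In ENTERO-PRO, 11 of 22 turnover partners were lower and 2 higher (median -0.46), where 20.5% of all genes were lower and 25.2% higher (median -0.05). ISC had 10 lower and 4 higher (median -0.17) and SEC-PRO 9 and 1 (median -0.18), against 27.3% and 18.8% of all genes lower. In EEC-PRE, 11 were higher and 2 lower (median 0.34), where 25.5% of all genes were higher and 20.8% lower (median 0.01). EC had 10 higher and 1 lower (median 0.19), NON-EC 10 and 1 (median 0.26) and TUFT 10 and 3 (median 0.33). Of all genes, 31.4%, 28.6% and 20.3% were higher in these types. Among the turnover partners, casein kinase 1 epsilon (Csnk1e) stood at 115 scaled CPM in EEC-PRE and 8.60 in ENTERO-PRO. Of 17 Wnt targets, 13 were higher and 1 lower in ISC (median 1.91), where 35.2% of all genes were higher and 27.3% lower (median 0.04). This was not particular to ISC. PANETH had 11 higher and 0 lower (median 1.58), PANETH-PRE 11 and 1 (median 1.16) and TUFT 9 and 0 (median 0.55). Of all genes, 16.6%, 13.4% and 20.3% were higher in these types. In GOBLET, 14 were lower and 1 higher (median -1.88), where 28.9% of all genes were lower and 25% higher. Lgr5, Ascl2 and Slc12a2 are both Wnt targets here and markers by which ISC was checked. Lgr5 alone read 67.9 and 42.4 scaled CPM in PANETH of WT, against 39.4 and 42.0 in ISC. In APC-KO replicate 2 it read 91.0 in PANETH and 57.1 in ISC. Ccnd1, cyclin D1, stood at 226 scaled CPM in ISC and 14.1 in EC, and the transcription factor Prox1 at 201 in NON-EC and 1.56 in ENTERO-PRO.

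The junction partners are genes of cell junctions, outside the destruction complex. In GOBLET, 6 of 8 were higher and none lower (median 0.76), where 25% of all genes were higher and 28.9% lower (median -0.21). GOBLET-PRE had 6 higher and 1 lower (median 0.45), where 28.7% of all genes were higher and 25.7% lower (median -0.04). Cdh17, an intestinal cadherin, stood at 811 scaled CPM in GOBLET and 99.4 in EEC-PRE, and the polarity gene Pard3 at 163 in EC and 36.6 in ENTERO-PRO. Of the nuclear partners, Tcf7l2, the main intestinal TCF factor, stood at 235 in GOBLET and 56.0 in ISC, and the Mediator kinase Cdk8 at 208 in EEC-PRE and 49.1 in ENTERO-PRO. The only ligand tested between types was Wnt3, at 188 scaled CPM in PANETH and 0.312 in GOBLET. The R-spondin receptor Lgr4 stood at 187 in PANETH and 18.7 in EEC-PRE, and the Wnt receptor Fzd5 at 105 in ENTERO-PRO and 12.0 in EEC-PRE. Of the cytoskeletal partners, the microtubule-end protein Mapre2 stood at 87.6 in GOBLET-PRE and 21.3 in ISC, and Ckap5 at 75.5 in SEC-PRO and 23.6 in ENTERO-PRO.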

How the data were processed

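UMI counts per gene and barcode were deposited by the authors, made with Cell Ranger 3.0.2, STAR and build mm10 per the submitters' processing notes. The authors' deposited tables of kept cells give each cell's type and mitochondrial share in percent; no source used here says how types were named. No doublet caller was run. Kept cells had 901 to 2999 genes. Counts were summed per library and type and tested with edgeR 4.0.16 (TMM, filterByExpr, quasi-likelihood, Benjamini-Hochberg at 0.05) in R 4.3.3; SE is the fold change divided by the root of F. Library total UMIs ranged from 54230249 to 61032126. Positions are GENCODE vM21 (GRCm38), which matched 31011 of 31053 identifiers. The tests were also run on simulated data, and no result of that is given here. Alternatives were DESeq2 1.42.0, limma 3.58.1, other filters, cells of at least 2000 UMIs, thinning to 2000 UMIs, 5% free RNA subtracted, the replicate block and each library left out. Genes named were the members, 2 per list with the lowest p over types at a mean of at least 20 CPM, 3 most alike per member, and Axin2, Lgr5 and Myc. The members and lists were chosen with earlier results of these data known.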

Additional observations from a re-analysis of the deposited data

How the results depend on the processing

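No member passed the threshold in any genotype comparison or in the genotype by type term under any alternative run. Of the 31 genotype differences of members, 14 changed sign under at least one, none of them called in either direction. Of the 37 called pairs of member and type, 15 stayed past the threshold under all 13 alternatives and none changed direction; the cause was not tested for those lost. Pairs called numbered 24 in cells thinned to 2000 UMIs, which have fewer UMIs, and 19 to 37 with 1 library left out.

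Genes called by genotype in all kept cells numbered 23 by the DESeq2 test, 21 with no filter and 0 to 483 with 1 library left out. In EC they were 6 by DESeq2, 4 in thinned cells, 174 with no filter and 0 to 405 with 1 library left out. In GOBLET they were 3 with dominant genes left out, 3 with free RNA subtracted, 79 with no filter and 0 to 21 with 1 library left out. In GOBLET-PRE they were 38 by DESeq2, 15 in thinned cells, 0 with free RNA subtracted, 280 with no filter and 7 to 64 with 1 library left out. The genotype by type term called 6 by DESeq2, 18 in thinned cells and 8 to 328 with 1 library left out. A lone library in a group was assumed to vary like the others.

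The deviations of same-numbered libraries had a correlation of r = -0.31 in all kept cells. By type it was -0.048 (EC), -0.017 (GOBLET) and -0.013 (GOBLET-PRE). With 2 libraries a group, replicates 1 and 2 give the same value, so it does not show whether the numbers pair them. With the replicate block, 4 genes were called in all kept cells, 73 in GOBLET and 110 in GOBLET-PRE, no member among them, and Gsk3b in EC was -0.035. With the crossed block, added after seeing the data, 1 gene was called in all kept cells.

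Signs changed as follows. In thinned cells Amer1 in EC was -0.16, Axin1 in EC -0.036, Axin1 in GOBLET-PRE 0.20, Btrc in all kept cells 0.034, and, in GOBLET-PRE, Btrc 0.024, Ctnnb1 0.0085 and Gsk3b -0.024. Amer1 in all kept cells was 0.15 in an equal mix of 3 types by limma. Gsk3b in EC was -0.00063 by DESeq2, -0.039 in cells of at least 2000 UMIs and -0.035 with no filter. With 1 library left out, EC gave -0.22 to 0.39 for Amer1, -0.029 to 0.44 for Axin1 and -0.27 to 0.16 for Gsk3b. All kept cells gave -0.28 to 0.088 for Btrc and -0.068 to 0.33 for Gsk3a. GOBLET gave -0.57 to 0.12 for Btrc and -0.31 to 0.018 for Ctnnb1. GOBLET-PRE gave -0.15 to 0.014 for Csnk1a1, -0.13 to 0.41 for Gsk3a and -0.0019 to 0.15 for Gsk3b. Axin1, Gsk3a, Btrc and Amer1 rest on few UMIs in many sums, and what size of difference 2 libraries a group could show was not tested.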

Other observations

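Each library also held barcodes with at least 2000 UMIs that the authors' tables did not keep: 2861 and 3241 in WT and 3571 and 2635 in APC-KO. Their type is not given, so the members' levels are values only, in CPM without TMM scaling. Apc read 83.8 and 82.1 CPM in WT and 77.5 and 83.0 in APC-KO. Ctnnb1 read 183 and 221 in WT and 154 and 174 in APC-KO, and Axin1 25.6 and 27.5 against 21.4 and 22.9. Amer1 read 15.99 and 18.1 against 14.95 and 14.3, Gsk3a 28.4 and 29.7 against 27.8 and 35.99, and Btrc 8.82 and 9.37 against 7.75 and 9.06. Gsk3b read 116 and 124 against 103 and 126. Csnk1a1 read 334 and 370 against 282 and 319. With all barcodes of at least 2000 UMIs summed, kept or not, an alternative chosen after seeing the data, edgeR called no gene between the genotypes.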
